A study of Mus musculus with 8 samples.

Results

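The 10 genes described here are immediate early genes and genes of the transcription factor AP-1, chosen by symbol from the 36255 genes of a table of raw RNA counts from mouse cells. They are Fos, Fosb, Fosl1 and Fosl2 (FOS members), Jun, Junb and Jund (JUN members), the zinc finger factor gene Egr1, and Ier2 and Ier3. All 10 were in the table and passed the filter on low counts that left 16542 genes. The 8 libraries of poly(A) RNA form 4 groups of 2. These are embryoid bodies at day 2 (EBd2, aggregates in which embryonic stem cells begin to differentiate) with the label KO for Skp1a, EBd2 with the label fl/fl, embryonic stem (ES) cells labelled KO, and ES cells labelled fl/fl, the usual notation for both alleles floxed. Each group holds 2 lots, numbered 1, 2 or 12, and single libraries are named by group and lot. The sources used here do not say whether lots are separate cultures or clones, how or when Skp1a was deleted, which strain was used or whether feeder cells were. The p values therefore reflect the spread of these libraries alone, and that spread may be technical.

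Immediate early genes are transcribed within minutes of a signal such as serum, growth factor or stress, without new protein synthesis. FOS and JUN proteins pair through leucine zippers to form AP-1, which binds a short palindromic DNA site. FOS proteins need a JUN partner, while JUN proteins can also pair among themselves and with ATF proteins. EGR1 is a zinc finger factor induced by ERK signalling, and ES cells are known for signalling of FGF4 through ERK as they leave the naive state. Skp1a encodes SKP1, which links F-box proteins to the cullin of SCF ubiquitin ligases, and the F-box protein FBXW7 is known to bring phosphorylated JUN proteins to SCF for degradation. Transcript counts do not measure those proteins.

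Promoter sequences from RefSeq (GRCm38.p6) were found for 7 of the 10 genes. They are printed here for Jun and Fos, the founding gene of each AP-1 family, as the 250 bases that end just before the start site. Jun (chr4:95052223-95052472, - strand) has 1 match to TGACNTCA, a form of the AP-1 and ATF site, and Fos (chr12:85473640-85473889, + strand) has 2 matches to TGACG, the core of the CREB site. Capitals mark these matches.
Jun: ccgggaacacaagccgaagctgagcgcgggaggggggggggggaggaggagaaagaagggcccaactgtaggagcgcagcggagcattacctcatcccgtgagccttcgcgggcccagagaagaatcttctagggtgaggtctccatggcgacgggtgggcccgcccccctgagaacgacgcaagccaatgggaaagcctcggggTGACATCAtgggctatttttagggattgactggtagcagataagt
Fos: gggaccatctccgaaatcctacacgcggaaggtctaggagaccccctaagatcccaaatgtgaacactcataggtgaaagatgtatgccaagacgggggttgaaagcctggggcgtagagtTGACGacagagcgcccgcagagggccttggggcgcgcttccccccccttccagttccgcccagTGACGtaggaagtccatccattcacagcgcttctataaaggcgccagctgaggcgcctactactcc

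The Jun match starts 45 bases before the start site, and the Fos match nearest the start site begins 66 bases before it. Matches were searched on both strands and a match to TGACNTCA can also hold TGACG. Of 32851 promoters of this length, 7.49% held TGACNTCA, 17.8% TGACG and 4.7% the EGR1 site GCGNGGGCG. Among the 7 of the 10 genes with a promoter sequence, Fosb and Junb also held TGACG, and Fosl2 and Fosb held GCGNGGGCG. The remaining genes could not be searched. The AP-1 site TGANTCA, in 6.75% of promoters, and the CArG box of serum response factor, in 1.47%, were in none of the 7 windows. Bases farther from the start site were not searched, so these genes may hold such sites elsewhere. TATAAA, in 12.4%, was in that of Fos. These matches describe letters in a window and show no binding.

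Library totals ran from 9260644 to 10055667 counts in KO EBd2 and from 7858452 to 9133497 in fl/fl EBd2, and from 21545868 to 23343471 in the 4 ES cell libraries. Skp1a itself kept 72.8% of the fl/fl level in EBd2 labelled KO and 85.9% in ES cells labelled KO, so genotypes are called by their labels. Markers of the labelled cells were present, given here in CPM (counts scaled to a common library total, with TMM factors). In ES cells, 9 naive ES cell genes summed to between 2845 and 2892 CPM in KO and between 3193 and 3199 CPM in fl/fl. In fl/fl EBd2, 7 epiblast genes summed to between 2287 and 2451 CPM. The naive sum was still between 1793 and 1889 CPM in KO EBd2 and between 1728 and 1803 CPM in fl/fl EBd2. In KO ES cells the epiblast sum was between 301.5 and 317.7 CPM, and in fl/fl ES cells between 365.4 and 367.7 CPM. The epiblast sum was between 488.7 and 499.6 CPM in KO EBd2, where 5 of 5 tested streak genes and 7 of 7 tested endoderm genes were higher than in fl/fl EBd2. Of the 9 naive genes, 4 were called higher and 3 lower in that comparison. In KO against fl/fl ES cells, 0 of the 9 were called higher and 5 lower. The 14 fibroblast feeder markers summed to between 239.5 and 263.8 CPM in KO EBd2, between 60.2 and 63.7 CPM in fl/fl EBd2, between 777.3 and 841.9 CPM in KO ES cells and between 656 and 692.3 CPM in fl/fl ES cells. Of the 13 tested, 11 were called higher in KO than in fl/fl EBd2 and 6 in KO than in fl/fl ES cells, and 0 lower in either. Of all genes tested, 30.7% were called higher and 31.5% lower in EBd2, and 10.9% and 12.8% in ES cells. Among the 14, the collagen gene Col1a1 averaged 61.4 CPM in KO EBd2, 10.1 CPM in fl/fl EBd2, 318.4 CPM in KO ES cells and 296 CPM in fl/fl ES cells, and Lum alone was at 0 in any library, in KO EBd2 lot 2 and fl/fl EBd2 lot 1. In bulk RNA a change in the number of cells of a type and a change of RNA per cell cannot be told apart.

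In EBd2, AP-1 genes stood higher in KO than in fl/fl. Fosl2, Fosl1, Jun, Fos, Egr1 and Junb rose, Ier2 fell, and Fosb, Jund and Ier3 did not pass. Of the 10 genes 6 were called higher, against 30.7% of all genes tested, and 1 lower, against 31.5%, by the edgeR quasi-likelihood test with Benjamini-Hochberg adjustment over all genes at 0.05. Their median log2 fold change was 1.03, with 0.0040 over all genes tested. Calls were frequent in this comparison, at 62.2% of all genes in either direction. The libraries of KO and fl/fl EBd2 did not overlap for 9 of the 10 genes, 8 higher and 1 lower, against 79.7% of all genes, 40.2% higher and 39.6% lower. In ES cells the differences were smaller. Jun, Fosl2, Egr1 and Jund were called higher, 4 of 10 against 10.9% of all genes, and Fos and Ier2 lower, 2 of 10 against 12.8%, with a median of 0.13. Calls covered 23.7% of all genes there. Libraries did not overlap for 8 of the 10 genes, 5 higher and 3 lower, against 64.6% of all genes, 32.3% in each direction. Scaling by library size only shifts the median of all genes to 0.23 in EBd2 and 0.07 in ES cells. It adds Jund to the genes called higher in EBd2 and removes the calls of Fos and Ier2 in ES cells. Under that scaling 7075 of all 16542 genes were called higher and 3345 lower in EBd2. In ES cells it gave 2819 higher and 1089 lower.

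**Figure D1:**
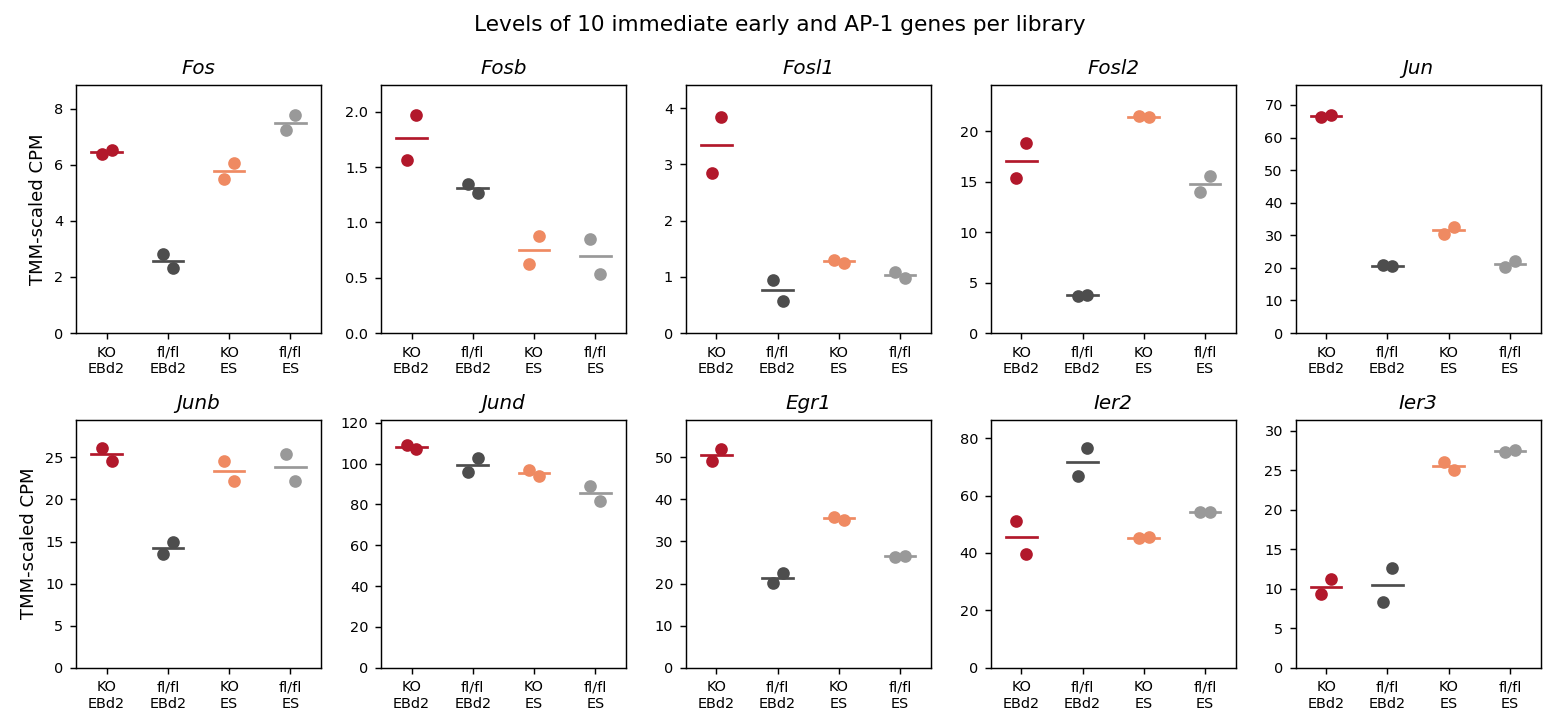
TMM-scaled CPM of the 10 genes in each library, with KO EBd2, fl/fl EBd2, KO ES cells and fl/fl ES cells from left to right, a point per library and a line at the mean of 2. Jun and Egr1 are highest in KO EBd2, Fos, Fosl2 and Junb are lowest in fl/fl EBd2, and Ier3 is low in EBd2 of both genotypes.

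Fos encodes the founding FOS protein, whose messenger RNA is short-lived. It lies on chromosome 12 (85473890 to 85477273, + strand, GRCm38, 4 merged exons). Fos was at 6.37 and 6.53 CPM in KO EBd2, against 2.83 and 2.31 CPM in fl/fl EBd2. In ES cells it was at 5.49 and 6.07 CPM in KO and at 7.23 and 7.77 CPM in fl/fl. Fl/fl EBd2 thus stood apart as the low group, while KO EBd2 lay between the ES cell groups. The log2 fold change of KO over fl/fl was 1.34 ± 0.19 (SE) in EBd2 (adjusted p = 8.95e-05) and -0.38 ± 0.12 in ES cells (adjusted p = 0.043). The ES cell call was lost without any one of the 4 ES cell libraries (adjusted p between 0.0751 and 0.217), without either KO EBd2 library (0.0541 and 0.0531), with lots as blocks (0.221) or lot 1 as a block (0.0581), with library sizes only (0.09), without a filter on low counts (0.0576) or with a stricter one (0.0528), after thinning (0.43) and by DESeq2 (0.266). Between stages, Fos was at 0.16 ± 0.14 in KO cells (adjusted p = 0.353), whereas it fell in fl/fl cells (-1.55 ± 0.18, adjusted p = 1.54e-05). The test of that difference, the interaction of genotype and stage, gave 1.71 ± 0.23 (adjusted p = 8.5e-05).

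Fosl2 and Fosl1 encode FRA2 and FRA1, FOS proteins that lack the strong activation domain of FOS. Fosl2 (chromosome 5, 32135801 to 32157842, + strand) was at 15.4 and 18.8 CPM in KO EBd2, against 3.64 and 3.81 CPM in fl/fl EBd2. In ES cells it was at 21.5 and 21.4 CPM in KO and at 14 and 15.5 CPM in fl/fl. It was 4.58-fold higher in KO EBd2 than in fl/fl EBd2 (log2 2.20 ± 0.16, adjusted p = 3.55e-07) and 1.45-fold higher in KO than in fl/fl ES cells (0.54 ± 0.09, adjusted p = 0.00167). The 2 KO EBd2 libraries overlapped those of fl/fl ES cells. From ES cells to EBd2 it fell by 0.32 on the log2 scale in KO cells and by 1.98 in fl/fl cells. Both falls were called (adjusted p = 0.0136 in KO cells and 7.91e-07 in fl/fl cells). That in KO cells lost its call without KO EBd2 lot 1 (adjusted p = 0.14), with library sizes only (0.147) and by DESeq2 (0.0681), and the interaction was 1.66 ± 0.19 (adjusted p = 3.2e-05).

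Fosl1 (chromosome 19, 5447547 to 5455946, + strand) was scarce, with 29 and 43 counts in KO EBd2 and 7 and 5 in fl/fl EBd2. In CPM it was at 2.84 and 3.85 in KO EBd2, against 0.945 and 0.577 in fl/fl EBd2, and at 1.29 and 1.25 in KO ES cells, against 1.08 and 0.977 in fl/fl ES cells. KO EBd2 was the one high group. The fold change was 2.15 ± 0.39 on the log2 scale in EBd2 (adjusted p = 0.000502) and 0.30 ± 0.32 in ES cells (adjusted p = 0.536). Between stages it rose in KO cells (1.39 ± 0.30, adjusted p = 0.00163) and did not pass in fl/fl cells (-0.45 ± 0.42, adjusted p = 0.385), with an interaction of 1.85 ± 0.51 (adjusted p = 0.0112). The interaction call was lost by DESeq2 (0.0543), without fl/fl EBd2 lot 12 (0.0584), after thinning to one depth (0.0617) and with lots as blocks (0.214). Exons of Ccdc85b lie opposite those of Fosl1, and no source used here gives the strand setting of the counting, so reads of the pair cannot be told apart. Ccdc85b averaged 14.4 CPM in KO EBd2 and 18.5 CPM in fl/fl EBd2 and was called lower in KO (-0.35 ± 0.10, adjusted p = 0.0116).

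Fosb (chromosome 7, 19302696 to 19310051, - strand), whose protein forms AP-1 in neurons and other stimulated cells, was near the limit of counting, with 16 and 22 counts in KO EBd2, 10 and 11 in fl/fl EBd2, 14 and 19 in KO ES cells and 19 and 11 in fl/fl ES cells. It did not pass between genotypes in EBd2 (0.44 ± 0.42, adjusted p = 0.391) or in ES cells (0.10 ± 0.40, adjusted p = 0.887). It was called higher in KO EBd2 than in KO ES cells (1.23 ± 0.39, adjusted p = 0.0171). Between stages in fl/fl cells the value was 0.90 ± 0.44 (adjusted p = 0.102), and the interaction was 0.33 ± 0.59 (adjusted p = 0.674). The call in KO cells was lost without KO EBd2 lot 2 (0.122), without KO ES lot 1 (0.118), after thinning (0.0617), with lots as blocks (0.0702) and by DESeq2 (0.0901).

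Jun encodes the JUN protein with the strongest activation domain, a target of the JNK kinases. It lies on chromosome 4 (95049034 to 95052222, - strand, a gene of 1 exon). Jun was at 66.4 and 66.9 CPM in KO EBd2, against 20.8 and 20.5 CPM in fl/fl EBd2. In ES cells it was at 30.4 and 32.7 CPM in KO and at 20.4 and 22 CPM in fl/fl. Both KO groups stood above both fl/fl groups, and the fl/fl stages overlapped. It was 3.23-fold higher in KO than in fl/fl EBd2 (1.69 ± 0.08 on the log2 scale, adjusted p = 8.13e-09) and 1.49-fold higher in ES cells (0.57 ± 0.07, adjusted p = 0.000173). From ES cells to EBd2 it rose in KO cells (1.08 ± 0.06, adjusted p = 4.71e-08) and was at -0.04 ± 0.08 in fl/fl cells (adjusted p = 0.765), with an interaction of 1.12 ± 0.10 (adjusted p = 5.23e-06). Among all genes tested in EBd2, 12.9% had a larger absolute log2 fold change than Jun.

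Junb encodes a JUN protein that can oppose JUN at some promoters (chromosome 8, 84974484 to 84978718, - strand). It was at 26.2 and 24.6 CPM in KO EBd2, against 13.5 and 15 CPM in fl/fl EBd2, and at 24.6 and 22.2 CPM in KO ES cells, against 25.4 and 22.2 CPM in fl/fl ES cells. Fl/fl EBd2 was the low group, and the other 3 groups overlapped. The fold change was 0.83 ± 0.12 in EBd2 (adjusted p = 7.89e-05) and -0.03 ± 0.08 in ES cells (adjusted p = 0.861). Between stages Junb was at 0.11 ± 0.09 in KO cells (adjusted p = 0.297, and 0.0281 with library sizes only) and fell in fl/fl cells (-0.74 ± 0.11, adjusted p = 0.00014), with an interaction of 0.85 ± 0.14 (adjusted p = 0.000523). Exons of Prdx2 lie opposite those of Junb. Prdx2 averaged 197.6 CPM in KO EBd2 and 204.5 CPM in fl/fl EBd2 and did not pass there (-0.05 ± 0.05, adjusted p = 0.397).

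Jund (chromosome 8, 70698949 to 70700616, + strand, 1 exon), known as the JUN gene least induced by signals, was at 109 and 107 CPM in KO EBd2 and at 96.1 and 103 CPM in fl/fl EBd2, against 96.9 and 93.9 CPM in KO ES cells and 88.9 and 81.9 CPM in fl/fl ES cells. The highest group mean was 1.27 times the lowest. Jund was called higher in KO than in fl/fl ES cells (0.16 ± 0.05, adjusted p = 0.0273), a call lost without KO ES lot 1 (0.138) or lot 12 (0.0643), without fl/fl ES lot 2 (0.211), with lots as blocks (0.193) and by DESeq2 (0.0504). In EBd2 its value was 0.12 ± 0.06 (adjusted p = 0.0824), which passed with library sizes only (0.000245), under a stricter filter on low counts (0.0111) and in a fit of the 4 EBd2 libraries (0.0361). Between stages it rose in KO cells (0.18 ± 0.05, adjusted p = 0.00683), a call lost after thinning (0.139), and in fl/fl cells (0.22 ± 0.05, adjusted p = 0.00366), a call lost without fl/fl EBd2 lot 12 (0.0762). The interaction was -0.04 ± 0.07 (adjusted p = 0.673). Jund and Jun each overlap an annotated gene on the other strand, Gm11175 and Junos, which were not in the count table.

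**Figure D2:**
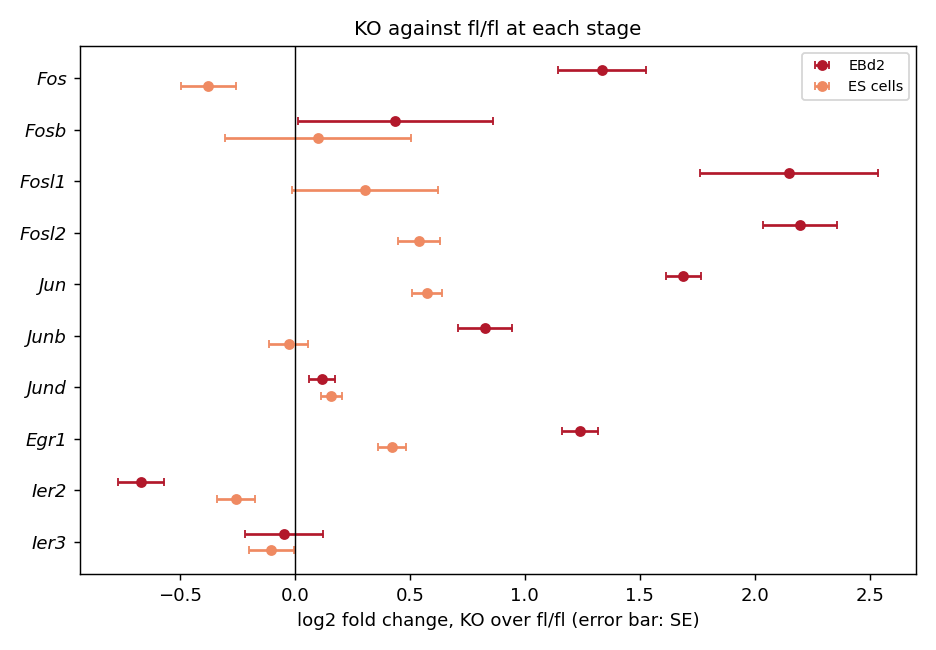
Log2 fold change of KO over fl/fl for each of the 10 genes, in EBd2 (upper point of each pair) and in ES cells (lower point), with the standard error as the bar. Fosl2, Fosl1, Jun, Fos, Egr1 and Junb lie right of 0 in EBd2, at 0.83 to 2.20, while their ES cell values lie between -0.38 and 0.57.

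Egr1 (chromosome 18, 34859823 to 34864984, + strand) followed Jun in its order of groups. It was at 49.2 and 52 CPM in KO EBd2, against 20.1 and 22.6 CPM in fl/fl EBd2, and at 35.8 and 35.1 CPM in KO ES cells, against 26.3 and 26.6 CPM in fl/fl ES cells. None of the 4 groups overlapped the next in order of level. The rise was 1.24 ± 0.08 in EBd2 (adjusted p = 9.55e-08) and 0.42 ± 0.06 in ES cells (adjusted p = 0.000712). From ES cells to EBd2 Egr1 rose in KO cells (0.51 ± 0.06, adjusted p = 2.03e-05) and fell in fl/fl cells (-0.30 ± 0.08, adjusted p = 0.00637), a fall not called without fl/fl EBd2 lot 1 (0.0729). The interaction was 0.82 ± 0.10 (adjusted p = 4.7e-05).

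Ier2 and Ier3 did not share this pattern. Ier2 (chromosome 8, 84661331 to 84662852, - strand), a short gene of 1 exon induced by growth factors, was at 51.2 and 39.7 CPM in KO EBd2, against 66.7 and 76.7 CPM in fl/fl EBd2, and at 45.1 and 45.6 CPM in KO ES cells, against 54.1 and 54.3 CPM in fl/fl ES cells. It was the one gene of the 10 lower in KO EBd2 (-0.67 ± 0.10, adjusted p = 0.000135). It was also lower in KO ES cells (-0.26 ± 0.08, adjusted p = 0.0439), a call lost without any one of the 4 ES cell libraries (adjusted p between 0.134 and 0.177), with library sizes only (0.127), with lot 1 as a block (0.0587) and after thinning (0.142). Between stages Ier2 was at -0.0036 ± 0.09 in KO cells (adjusted p = 0.976) and rose in fl/fl cells (0.41 ± 0.09, adjusted p = 0.0023), a call lost without fl/fl EBd2 lot 12 (0.0596). Its interaction of -0.41 ± 0.13 (adjusted p = 0.0222) was lost without KO EBd2 lot 2 (0.0909), KO ES lot 12 (0.0522), fl/fl EBd2 lot 12 (0.125), or fl/fl ES lot 1 (0.0589) or lot 2 (0.0554), with library sizes only (0.128), with lots as blocks (0.444) and after thinning (0.0503).

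Ier3 (chromosome 17, 35821684 to 35822923, + strand), a target of NF-kappaB and p53 that acts on cell survival, differed by stage and not detectably by genotype. It was at 9.41 and 11.2 CPM in KO EBd2 and at 8.37 and 12.7 CPM in fl/fl EBd2, against 26.1 and 25.1 CPM in KO ES cells and 27.4 and 27.6 CPM in fl/fl ES cells. The EBd2 groups overlapped, and both lay below all ES cell libraries. Ier3 fell between stages by 1.31 ± 0.13 on the log2 scale in KO cells (adjusted p = 3.9e-06) and by 1.36 ± 0.14 in fl/fl cells (adjusted p = 5.6e-06). The values for KO over fl/fl were -0.05 ± 0.17 in EBd2 (adjusted p = 0.826) and -0.10 ± 0.10 in ES cells (adjusted p = 0.497), and the interaction was 0.06 ± 0.20 (adjusted p = 0.843).

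**Figure D3:**
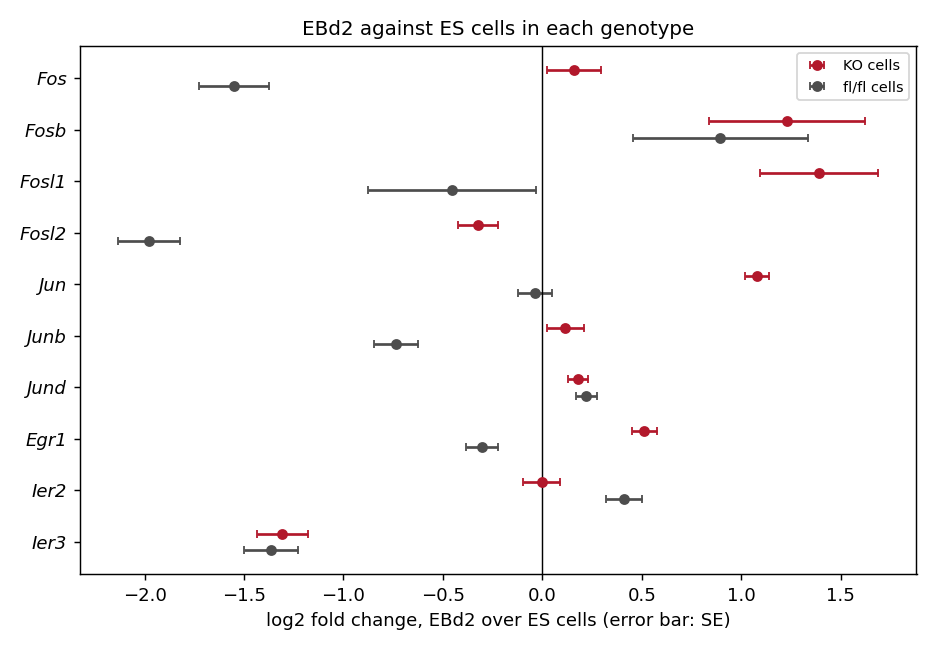
Log2 fold change of EBd2 over ES cells for each of the 10 genes, in KO cells (upper point) and fl/fl cells (lower point), with the standard error as the bar. Fos lies at 0.16 in KO cells and falls by 1.55 in fl/fl cells, Jun lies at 1.08 in KO cells and -0.04 in fl/fl cells, and the Ier3 values nearly coincide.

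Across stages, 5 of the 10 genes were called higher and 2 lower in KO cells, against 31.7% and 33.1% of all genes tested, with a median of 0.17, and 64.8% were called in either direction. Libraries did not overlap for 8 of the 10, 6 higher and 2 lower, against 83.0% of all genes, 41.2% higher and 41.8% lower. In fl/fl cells 2 were called higher and 5 lower, against 28.9% and 30.1%, with a median of -0.38, and 59.0% were called in either direction. Libraries did not overlap for 9 of the 10, 3 higher and 6 lower, against 78.9% of all genes, 38.4% higher and 40.5% lower. The interaction was called for 6 genes as higher, against 22.4% of all genes, and for 1 as lower, against 25.7%, with 48.0% called in all. These comparisons share libraries. Fl/fl EBd2 was the lowest of the 4 groups for Fos, Fosl1, Fosl2, Jun, Junb and Egr1, although it did not stand apart from fl/fl ES cells for Jun. For Fosl1, with 7 and 5 counts in fl/fl EBd2, the difference from fl/fl ES cells did not pass (-0.45 ± 0.42 on the log2 scale). The summed feeder marker level was lowest in fl/fl EBd2 as well, and its part in these results was not tested.

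Levels of different genes were compared per length, as CPM per kilobase of merged exons. Summed JUN members exceeded summed FOS members in every library. The 3 JUN members summed to 97.6 and 96 CPM per kilobase in KO EBd2, against 70 and 74.6 in fl/fl EBd2, and to 78.3 and 76.2 in KO ES cells, against 70.7 and 65.7 in fl/fl ES cells. The 4 FOS members summed to 5.95 and 6.92 CPM per kilobase in KO EBd2, against 2.26 and 1.86 in fl/fl EBd2, and to 5.28 and 5.55 in KO ES cells, against 5.19 and 5.47 in fl/fl ES cells. Fl/fl EBd2 was low for FOS members, and KO EBd2 was high for JUN members. Jund made up 62.8% of the summed level of all 7 subunits in KO EBd2 and 80.2% in fl/fl EBd2 on average (n = 2 libraries each), while Jun made up 20.3% in KO EBd2 and 8.72% in fl/fl EBd2. In ES cells Jun made up 12% in KO and 9.06% in fl/fl. Transcript levels do not give the make-up of the AP-1 proteins.

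**Figure D4:**
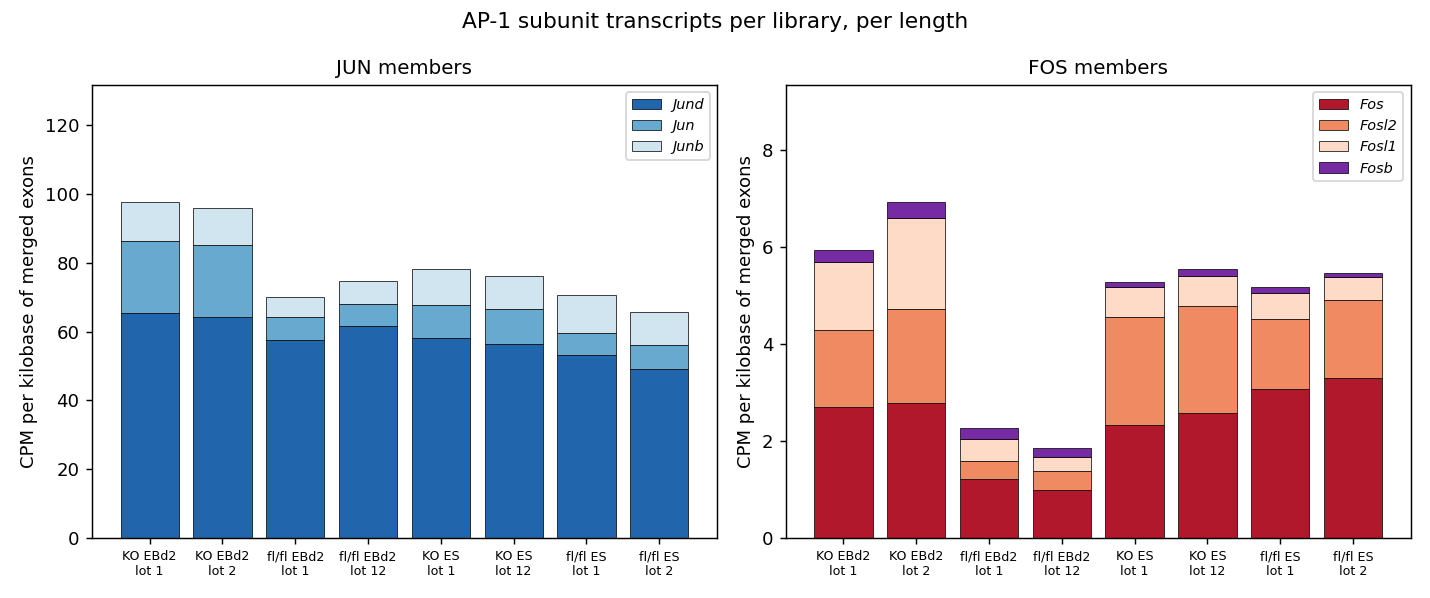
Stacked levels of JUN members (left) and FOS members (right) in each library, in CPM per kilobase of merged exons, with different vertical scales that both start at 0. The FOS total is about 2 in fl/fl EBd2 libraries and above 5 in all others, and the Jun layer is thickest in KO EBd2.

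Other AP-1 genes and partners went both ways. Of 12 listed, 10 were tested, and 3 rose and 2 fell in KO against fl/fl EBd2 (all genes: 30.7% higher, 31.5% lower). Their median was 0.14. Scaled by library size only, 6 rose and 1 fell, where 7075 of all 16542 genes rose and 3345 fell. The stress-induced AP-1 partner Atf3 had the largest change of the 10: it was at 28.6 and 27.8 CPM in KO EBd2, against 3.24 and 3.46 CPM in fl/fl EBd2 (3.07 ± 0.16, adjusted p = 2.23e-08), and at 4.1 and 4.08 CPM in KO ES cells, against 1.75 and 2.54 CPM in fl/fl ES cells (0.94 ± 0.17, adjusted p = 0.00255). The large MAF gene Maf rose in EBd2 (0.99 ± 0.27), a call lost with lots as blocks (adjusted p = 0.0998). The small MAF gene Mafg fell in EBd2 (-0.63 ± 0.07). Maff, another small MAF gene, fell there too (-0.38 ± 0.12, adjusted p = 0.0144), a call lost without KO EBd2 lot 1 (0.0924) or fl/fl EBd2 lot 1 (0.0768), with library sizes only (0.34) and by DESeq2 (0.0673). In ES cells 2 of the 10 rose and 0 fell (all genes: 10.9% higher, 12.8% lower). The AP-1 inhibitor Jdp2 was among those that rose (0.51 ± 0.14, adjusted p = 0.0244). Its call was lost without any one of the 4 ES cell libraries, with lots as blocks (0.265) and by DESeq2 (0.148).

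Of 34 other immediate early genes, 32 were tested, and 19 rose and 7 fell in KO against fl/fl EBd2, with a median of 0.53. Of all genes tested, 30.7% rose and 31.5% fell there. The polo-like kinase gene Plk2 was at 147.2 and 146 CPM in KO EBd2, against 49.9 and 46.7 CPM in fl/fl EBd2 (1.60 ± 0.05). Btg2, an antiproliferative gene, was at 181.3 and 170.3 CPM in KO EBd2, against 58.2 and 48.2 CPM in fl/fl EBd2 (1.73 ± 0.07). The matricellular gene Ccn1, formerly Cyr61, was at 81.3 and 74.1 CPM in KO EBd2, against 22.4 and 19.3 CPM in fl/fl EBd2 (1.90 ± 0.08), and Phlda1 rose as well (2.01 ± 0.11). All 4 were also higher in KO than in fl/fl ES cells, by between 0.27 (Plk2) and 0.78 (Phlda1) on the log2 scale. In ES cells 8 of the 32 rose and 8 fell (all genes: 10.9% higher, 12.8% lower), with a median of -0.00053. Scaled by library size only, 11 rose and 7 fell there, where 2819 of all 16542 genes rose and 1089 fell. The TGF-beta-induced gene Klf10 (-0.57 ± 0.04), the clock gene Per1 (-0.60 ± 0.06) and the survival gene Mcl1 (-0.35 ± 0.04) fell in ES cells. The immediate early genes thus did not move one way. In EBd2 Klf10 (-0.42 ± 0.05), Per1 (-0.45 ± 0.08) and Mcl1 (-0.47 ± 0.04) fell as well.

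Genes listed as AP-1 targets were higher in KO EBd2 in 19 of 20 cases and lower in 0, with a median of 1.75. Of all genes tested, 30.7% were higher and 31.5% lower. The secreted phosphoprotein gene Spp1 was at 795.9 and 780 CPM in KO EBd2, against 215.9 and 188.9 CPM in fl/fl EBd2 (1.96 ± 0.05). The intermediate filament gene Vim rose by 1.69 ± 0.06 and the integrin gene Itga5 by 1.23 ± 0.05 on the log2 scale. The metallothionein gene Mt1 was the gene that did not pass (-0.0044 ± 0.05, adjusted p = 0.951). In ES cells 8 of the 20 were higher and 2 lower (all genes: 10.9% higher, 12.8% lower), with a median of 0.24. Among those called were cyclin D1, Ccnd1 (0.44 ± 0.05), and Mt1, which fell (-0.43 ± 0.05). With library sizes only the 8 and 2 became 11 and 1, where 2819 of all 16542 genes were higher and 1089 lower. Many of these genes are also expressed by fibroblasts and endoderm. Feeder and endoderm markers were higher in KO EBd2 too, and their part in the count was not tested. The summed level of the 20 was between 3161 and 3325 CPM in KO EBd2 and between 1887 and 1926 CPM in fl/fl EBd2, and in ES cells between 3884 and 4103 CPM in KO and between 4035 and 4089 CPM in fl/fl.

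**Figure D5:**
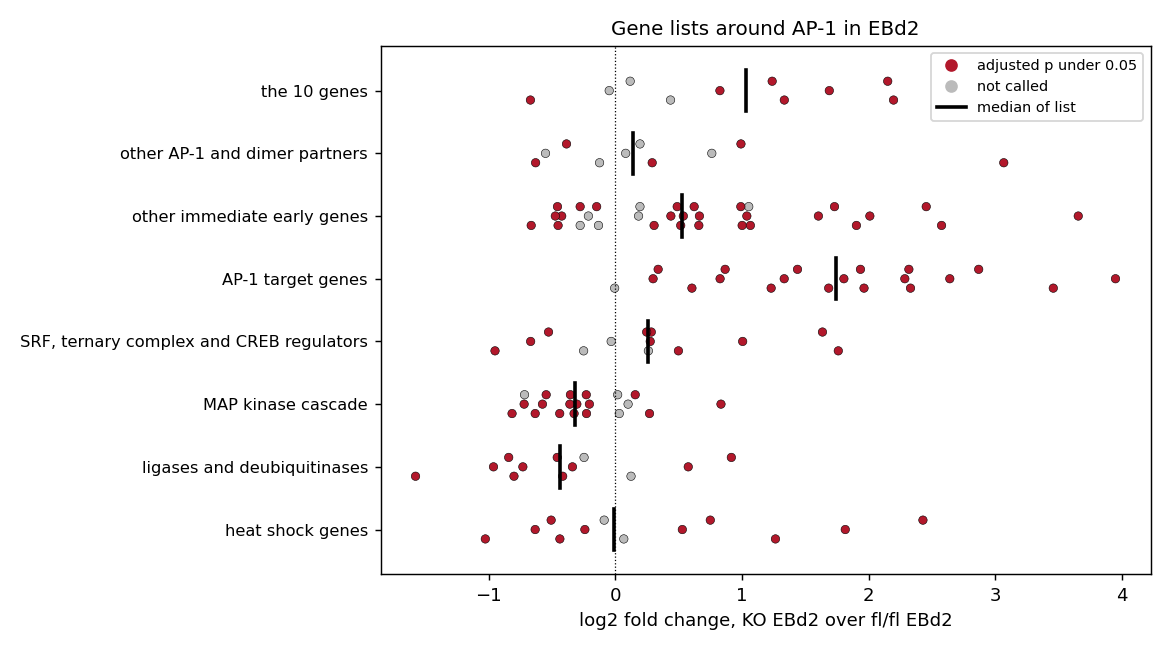
Log2 fold change of KO over fl/fl in EBd2 for the members of 8 gene lists, a point per gene, red where the adjusted p is under 0.05 and grey otherwise, with a bar at the median of the list. The median is 1.03 for the 10 genes, 1.75 for AP-1 target genes and -0.44 for the ligases and deubiquitinases, against 0.0040 over all genes tested.

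Transcriptional regulators of immediate early genes were mixed. Of 13 genes for serum response factor, its ternary complex partners, CREB factors and EGR co-repressors, 7 rose and 3 fell in EBd2. Their median was 0.26, and 30.7% of all genes rose and 31.5% fell there. Elk3, a ternary complex factor, was at 20.8 and 22.5 CPM in KO EBd2, against 5.8 and 7.96 CPM in fl/fl EBd2 (1.64 ± 0.14), and rose in ES cells too (0.68 ± 0.10, adjusted p = 0.000647). Nab2, an EGR co-repressor that is itself induced by EGR1, rose in EBd2 (1.76 ± 0.16). Srf (-0.67 ± 0.07) and Creb1 (-0.95 ± 0.06) fell there. In ES cells 2 rose and 1 fell (all genes: 10.9% higher, 12.8% lower). The calls of Mrtfa (0.26 ± 0.08, adjusted p = 0.0411) and Elk1 (-0.20 ± 0.07, adjusted p = 0.0493) did not hold in several alternatives. That of Mrtfa was lost by DESeq2 (0.0668), after thinning (0.107), with lots as blocks (0.281) and without KO ES lot 1 (0.0778) or lot 12 (0.222) or fl/fl ES lot 2 (0.263). That of Elk1 was lost without any one of 7 libraries, all but fl/fl ES lot 2 (adjusted p between 0.062 and 0.361). Nor did it hold when only the ES cell groups were fitted (0.0535), with lot 1 as a block (0.0546), a stricter filter (0.059), lots as blocks (0.0746), DESeq2 (0.102), library sizes only (0.192) or thinning (0.196).

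Kinases of the MAP kinase cascades were mostly lower in KO EBd2, with 13 of 20 called lower, 3 higher and a median of -0.31. Of all genes tested, 31.5% were lower and 30.7% higher. With library sizes only 7 were lower and 6 higher, so that balance rests on the scaling. That scaling called 3345 of all 16542 genes lower and 7075 higher. The ERK gene Mapk3 (-0.57 ± 0.05), Braf (-0.63 ± 0.05) and the JNK gene Mapk8 (-0.72 ± 0.07) fell. In ES cells 6 fell and 1 rose (all genes: 12.8% lower, 10.9% higher). By library size alone 3 fell and 4 rose there, where 1089 of all 16542 genes fell and 2819 rose. Map3k1 (-0.31 ± 0.05) was among those that fell. Map2k7, a kinase of JNK, fell there as well (-0.25 ± 0.06, adjusted p = 0.0074), a call lost without KO ES lot 12 (0.0619) or fl/fl ES lot 2 (0.0893) and with lots as blocks (0.0876).

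Of 12 genes listed for ligases and deubiquitinases of JUN and FOS proteins, 8 fell and 2 rose in EBd2, with a median of -0.44. Of all genes tested, 31.5% fell and 30.7% rose. Skp1a and other genes of SCF as a whole are on the list, so it is not specific to JUN and FOS. The deubiquitinase gene Usp28, whose product opposes FBXW7, was at 103.5 and 98.7 CPM in KO EBd2, against 302.4 and 300.1 CPM in fl/fl EBd2 (-1.58 ± 0.04, adjusted p = 2.45e-10), and fell in ES cells too (-0.38 ± 0.03). The deubiquitinase gene Usp10 (-0.80 ± 0.05) fell in EBd2. Fbxw7 was the F-box gene of the JUN degradation route, and it rose in EBd2 (0.58 ± 0.06, adjusted p = 6.43e-06) and did not pass in ES cells (0.13 ± 0.05, adjusted p = 0.0895). The other gene that rose was Skp2 (0.92 ± 0.05 in EBd2 and 0.44 ± 0.04 in ES cells). In ES cells 5 of the 12 fell and 1 rose (all genes: 12.8% lower, 10.9% higher).

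Some genes that are not in these lists had nearly the same pattern over the 8 libraries. Likeness was measured as the root mean square difference of centred log2 CPM among 10812 genes with a mean of at least 5 CPM, and it describes these libraries only. The genes nearest to Jun were Fam111a (0.0666), C1s1 (0.0943) and Hr (0.0978), those nearest to Egr1 were Sfi1 (0.0557), Galns (0.0701) and Arhgap10 (0.0812), and those nearest to Fos were Arrdc4 (0.115), Mpp2 (0.117) and Mylpf (0.135). Fam111a averaged 124.1 CPM in KO EBd2, 35.8 CPM in fl/fl EBd2, 55.2 CPM in KO ES cells and 40.2 CPM in fl/fl ES cells. Arrdc4 averaged 90 CPM in KO EBd2, 40.1 CPM in fl/fl EBd2, 87.4 CPM in KO ES cells and 112.5 CPM in fl/fl ES cells.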

How the data were processed

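The authors deposited raw counts of reads per gene symbol, with no normalization, for 36255 genes in 8 libraries (9800 genes at 0 throughout). Trimming with Trim Galore 0.6.7 and genome builds named GRCm38 and mm10 are recorded, per the submitters' processing notes. The aligner, counter, annotation and strand setting were not given in the sources used here. Groups follow the sample titles, with which the tissue field disagrees. That field calls the KO libraries ES cells and the fl/fl libraries embryoid body. Replicate libraries differed by more than sampling noise in each group (chi-square per degree of freedom between 2.12 and 2.81 over genes with enough counts). The spread beyond that noise was fitted at a common coefficient of variation of 3.4%, and it may be technical.

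The tests used edgeR 4.0.16 under R 4.3.3, with filterByExpr, TMM scaling, a model of 4 group means and the quasi-likelihood test (two-sided, Benjamini-Hochberg adjustment over 16542 genes, threshold 0.05). Residual degrees of freedom were 4 and prior ones 7.05. The standard error of a log2 fold change is its size divided by the square root of F. DESeq2 1.42.0, other scalings, filters, lot blocks, thinning and leaving out libraries were alternatives. The test was checked on simulated counts. Locations and merged exon lengths come from GENCODE vM21 (GRCm38). All 177 listed gene entries were found, 5 under a newer symbol. The 10 genes and the lists were chosen with earlier results of these data known. Genes named are the 10, up to 4 called genes per other list with the smallest p in each genotype comparison, Skp1a, and the 3 genes nearest in pattern to Fos, Jun and Egr1; some genes that this rule names are not reported here. Mt1, Klf10, Per1 and Mcl1 in EBd2, Fbxw7, Ccdc85b, Prdx2, Lum and Col1a1 were singled out after their values were seen. So were later-named heat shock genes outside that rule.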

Additional observations from a re-analysis of the deposited data

Results flagged for a closer look

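The effect of genotype differed between stages for 7 of the 10 genes by the interaction test (edgeR quasi-likelihood, Benjamini-Hochberg over all genes), against 48.0% of all genes tested. The log2 fold change of KO over fl/fl in EBd2 minus that in ES cells was 1.85 for Fosl1, 1.71 for Fos, 1.66 for Fosl2, 1.12 for Jun, 0.85 for Junb, 0.82 for Egr1 and -0.41 for Ier2. Fos was the one gene of the 10 whose called changes had opposite signs at the 2 stages, 1.34 in EBd2 and -0.38 in ES cells, and the ES cell call did not hold in most alternatives. Groups of 2 libraries are too small to test for a library far from the others.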

How the results depend on the processing

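Of 878 values of the 10 genes under the alternatives, 798 kept their direction and side of the threshold, 49 lost a call, 4 gained one and 27 changed sign; where no cause is given, it was not tested. No paired analysis was possible because the groups compared share lot 1 alone. With lots as a replicate block nonetheless, 2236 genes were called between genotypes in ES cells in place of 3926, and 2056 after thinning to one depth; leaving out a library gave 1909 to 3958. The 2 of the 10 genes called lower in ES cells became 0 with library sizes only, thinning or lot 1 as a block, and 1 with other filters, DESeq2 or lots as a block (0 to 2 without a library). In KO cells between stages, the 5 higher became 3 with a stricter filter, because Fosb and Fosl1 fell below it and were not tested. They also became 3 after thinning, where Fosb and Jund lost their calls. The 2 lower became 1 with library sizes only or DESeq2. In fl/fl cells between stages, 0 to 2 were higher without a library. The interaction called lower for 1 gene became 0 with library sizes only, lots as a block or thinning (0 to 1 without a library).

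The values that changed sign were uncalled in the main analysis. In ES cells, Junb was at 0.045 with library sizes only and 0.086 after thinning (-0.11 to 0.074 without a library), and Fosb at -0.083 with lots as a block and -0.060 after thinning (-0.18 to 0.48). Ier3 in EBd2 was at 0.18 with library sizes only and 0.014 with a stricter filter (-0.30 to 0.31). Ier2 between stages in KO cells was at 0.0054 with RLE scaling, 0.14 with library sizes only, 0.026 with a stricter filter, 0.0075 with DESeq2, 0.11 with lots as a block and 0.0012 after thinning (-0.20 to 0.17). Jun between stages in fl/fl cells lay between -0.10 and 0.015 without a library. The Jund interaction was 0.12 with library sizes only and 0.042 with lots as a block (-0.10 to 0.015), and those of Ier3 and Fosb lay between -0.20 and 0.40 and between -0.040 and 0.62 without a library. Low counts of Fosb and Fosl1 limit what could be detected, and 2 libraries a group limit all comparisons.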

Other observations

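Heat shock genes split in EBd2. Of 12, 5 rose and 5 fell in KO against fl/fl EBd2 (median -0.01), and 2 rose and 2 fell in ES cells. Of all genes tested, 30.7% rose and 31.5% fell in EBd2, and 10.9% rose and 12.8% fell in ES cells. The inducible genes Hspa1b (1.82 ± 0.13) and Hspb1 (1.27 ± 0.06) rose in EBd2, while the abundant Hsp90ab1 (-1.03 ± 0.03) and Hspa8 (-0.63 ± 0.03) fell. Hspa1a (2.43 ± 0.21) has a near-identical copy in Hspa1b, so the values of both are uncertain. Hsp90ab1 (-0.25 ± 0.03) and Hsp90aa1 (-0.19 ± 0.03) also fell in ES cells. Hspd1 (0.12 ± 0.03, adjusted p = 0.0153) and Hsph1 (0.14 ± 0.04, adjusted p = 0.0269) rose there. The Hsph1 call was lost without any one of the 4 ES cell libraries. That of Hspd1 was lost without KO ES lot 1 or lot 12 or fl/fl ES lot 1. With lots as blocks both calls were lost (adjusted p = 0.169 for Hsph1 and 0.0704 for Hspd1).

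Egr3 and Ptgs2, both immediate early genes, were scarce in fl/fl EBd2. Egr3 had 28 and 24 counts in KO EBd2 and 1 and 2 in fl/fl EBd2, and at most 6 counts in an ES cell library. Ptgs2, the gene of cyclooxygenase 2, was at 10.7 and 13.1 CPM in KO EBd2, against 1.89 and 2.08 CPM in fl/fl EBd2 (2.58 ± 0.18, adjusted p = 2.68e-07), and between 26 and 28.6 CPM in ES cells. Both were singled out after their values were seen.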
